A study of Mus musculus with 24 samples.

Results

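The Dlk1-Meg3 domain was followed through 4 of its transcripts, namely Dlk1, Meg3, Rian and Mirg, all 4 of which had a row among the 30590 gene symbols of the time course and among the 43629 Ensembl identifiers of the endpoint libraries. They were taken by name as members of the domain. The series compared wild-type (WT) E14 mouse embryonic stem cells (mESCs, 129/Ola background) with AGO2 knockout (KO) derivatives of the same line, AGO2 being the Argonaute protein that carries small RNAs and can cleave their targets. WT and KO cells were put through a 5-day protocol directed towards extraembryonic endoderm (XEN), in RPMI medium to which 10 ng/mL of activin A, retinoic acid at 0.1 µM and 15% serum were added, and polyadenylated RNA was sequenced from 2 libraries of each genotype on each of days 1, 2, 3 and 4. The endpoint set held 2 WT and 2 KO libraries of differentiated cells, labelled diff_XEN, and WT mESCs at passages 33 and 42, which were kept on gelatin in serum and LIF. The sample titles mark all of these endpoint samples as re-used. The 2 KO diff_XEN libraries are named for different clones, C4 and 5-3. The clone or clones behind the KO libraries of the course were not stated, so the loss of AGO2 and other differences between the lines cannot be told apart. No label says that replicates are independent cultures, and the p-values therefore reflect the spread among these libraries, which may be technical.

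In this imprinted domain of mouse chromosome 12 the 2 parental alleles are used differently. Dlk1, Rtl1 and Dio3 are transcribed from the paternal chromosome, whereas Meg3 (also called Gtl2), Rian and Mirg are non-coding RNAs read from the maternal chromosome on 1 strand and host small RNAs. A differentially methylated region between Dlk1 and Meg3 controls both sides, and in cultured mouse pluripotent cells the maternal RNAs are known to be lost in some lines through gain of methylation there. Dlk1 encodes a membrane protein related to Notch ligands, which is found in many immature embryonic tissues. The counts were not split by allele and no methylation was measured, so the values below are summed over both alleles.

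In the GRCm38 annotation (the assembly of mm10) the genes lie in the order Dlk1, Meg3, Rian and Mirg, all on the plus strand. Dlk1 (ENSMUSG00000040856, protein coding) spans chr12:109452823-109463336 and Meg3 (ENSMUSG00000021268) chr12:109541001-109571726, with 77.7 kb between them. Rian (ENSMUSG00000097451) spans chr12:109603940-109661716 and starts 32.2 kb after Meg3, and Mirg (ENSMUSG00000097391) spans chr12:109729764-109749460 and starts 68.0 kb after Rian. The antisense gene Rtl1 lies between Meg3 and Rian, and Dio3 lies 530 kb beyond Mirg. Because the maternal RNAs moved together in the libraries below, the stretch before the Meg3 start is shown. RefSeq lists 2 starts for Meg3, and these are the 250 bases before the first, at chr12:109540746-109540995 on the plus strand, from RefSeq (GRCm38.p6), with capitals at matches to a fixed set of short motifs.

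Meg3 promoter: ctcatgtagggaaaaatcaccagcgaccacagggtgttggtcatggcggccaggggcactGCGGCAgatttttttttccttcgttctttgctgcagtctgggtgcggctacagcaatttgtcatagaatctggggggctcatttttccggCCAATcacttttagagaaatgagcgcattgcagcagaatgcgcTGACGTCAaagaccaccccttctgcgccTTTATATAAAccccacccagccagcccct

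A total of 5 motifs were searched on both strands. The first, TGACGTCA (the full cAMP response element), lies 57 to 50 bases before the start and is held by 1.62% of 27025 RefSeq promoters of the same length. TATAAA occurs on both strands in overlapping matches from 29 to 20 bases before the start (12.97% of promoters), CCAAT from 100 to 96 bases before it (34.5%) and TGCCGC, the core that the imprint protein ZFP57 binds when methylated, on the minus strand from 190 to 185 bases before it (8.59%). GGGCGG, found in 32.9% of promoters, has no match there. The Dlk1 and Rian windows hold none of the 5 motifs. The Mirg window holds CCAAT, but at chr12:109734731-109734980 it precedes a RefSeq start inside the Mirg span given above. These are matches of letters and say nothing of binding in these cells.

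The small RNAs that these transcripts host are shown because they are of the kind that AGO2 loads, with the seed (bases 2 to 8, which pair with targets) in capitals. RefSeq places 61 microRNA genes with 113 mature forms in the domain, of which 2 genes lie in Meg3, 3 in Rian, 14 in Mirg and 6 opposite the Rtl1 exon. The other 36 fall in none of these by the spans used here. Only 18 of the 113 mature forms share a seed with another form of the domain, an example being the pair miR-453 and miR-496a-5p, both within Mirg.
miR-770-5p (Meg3, chr12:109563710-109563731): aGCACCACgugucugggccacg
miR-127-3p (opposite Rtl1, chr12:109592888-109592909): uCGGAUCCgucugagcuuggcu
miR-370-3p (Rian, chr12:109618305-109618326): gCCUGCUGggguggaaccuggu
miR-453 (Mirg, chr12:109735669-109735692): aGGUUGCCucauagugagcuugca
miR-496a-5p (Mirg, chr12:109739132-109739152): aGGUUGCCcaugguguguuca
The libraries did not measure these mature forms. Of 67 annotated microRNA genes of the domain, 41 had a row in the course and 21 of those a count, with at most 8 counts in any library, and in the endpoint libraries 32 of 59 rows had a count, with at most 9. What is reported below is therefore the level of the long host transcripts alone.

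Libraries held 10601574 to 27147835 counts in the course and 13941826 to 40139219 at the endpoint. Levels are CPM (counts scaled to a common library size, with TMM factors), changes are log2 fold changes with their standard error (SE) from edgeR, and a gene was called where its Benjamini-Hochberg adjusted p over all genes tested was below 0.05. Ago2 checked the genotype labels, with 186 to 581 CPM in the WT and 33.8 to 148 CPM in the KO libraries of the course (log2 change averaged over days -2.11 ± 0.15, adjusted p = 6.36e-07). Within KO, Ago2 rose from day 1 to day 4 (1.74 ± 0.30, adjusted p = 1.85e-04). Its difference between genotypes went from -3.27 ± 0.31 on day 1 to -1.31 ± 0.29 on day 3 and -2.09 ± 0.30 on day 4. The 2 tables had been counted differently (9 annotated genes inside Rian summed to 2 counts in all course libraries and to 415 in the endpoint libraries), so levels are not compared between them.

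During the course the maternally expressed RNAs rose in both genotypes, with Rian the most and Mirg the least abundant of them. Meg3, the first transcript of the maternal group, stood in WT replicates 1 and 2 at 10.3 and 13.96 CPM on day 1, 34.9 and 51.5 CPM on day 2, 90.0 and 116 CPM on day 3, and 167 and 172 CPM on day 4. In the KO replicates Meg3 stood at 21.6 and 37.1 CPM on day 1, 57.7 and 64.3 CPM on day 2, 168 and 187 CPM on day 3, and 279 and 296 CPM on day 4. Within each genotype no day overlapped the next, and on each of the 4 days both KO libraries were above both WT libraries. From day 1 to day 4 Meg3 rose by a log2 change of 3.80 ± 0.26 in WT (13.97-fold, adjusted p = 2.25e-07) and 3.29 ± 0.26 in KO (9.81-fold, adjusted p = 2.43e-07).

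Rian, the host of most C/D small nucleolar RNAs of the domain, followed the same course at a higher level. WT libraries held 23.0 and 29.1 CPM on day 1, 71.0 and 82.1 CPM on day 2, 160.3 and 243 CPM on day 3, and 277 and 222 CPM on day 4. KO libraries held 49.3 and 40.3 CPM on day 1, 110.2 and 131 CPM on day 2, 266 and 354 CPM on day 3, and 492 and 431 CPM on day 4. Again both KO libraries lay above both WT libraries on every day, while WT days 3 and 4 overlapped. The rise from day 1 to day 4 was 3.26 ± 0.23 in WT (9.58-fold, adjusted p = 2.68e-07) and 3.36 ± 0.23 in KO (10.3-fold, adjusted p = 1.05e-07).

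Mirg, whose annotated span holds 14 microRNA genes, was the least abundant of the group. Its WT libraries held 3.37 and 4.16 CPM on day 1, 7.66 and 12.2 CPM on day 2, 17.4 and 22.9 CPM on day 3, and 28.1 and 27.9 CPM on day 4. Its KO libraries held 7.77 and 14.1 CPM on day 1, 12.4 and 13.8 CPM on day 2, 24.5 and 30.5 CPM on day 3, and 44.7 and 38.7 CPM on day 4. The KO libraries were above the WT libraries of the same day throughout, by the narrowest margin on day 2, and KO days 1 and 2 overlapped. Mirg rose by 2.89 ± 0.30 in WT (7.43-fold, adjusted p = 4.4e-06) and 1.93 ± 0.28 in KO (3.81-fold, adjusted p = 3.43e-05).

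Dlk1, the paternally expressed protein gene, began at 36 to 62 counts per library and rose less evenly. WT libraries held 1.44 and 2.36 CPM on day 1, 4.89 and 3.98 CPM on day 2, 22.6 and 66.8 CPM on day 3, and 48.0 and 38.5 CPM on day 4. KO libraries held 1.89 and 2.86 CPM on day 1, 6.40 and 7.90 CPM on day 2, 6.69 and 26.7 CPM on day 3, and 95.0 and 57.6 CPM on day 4. The day 3 replicates lay far apart in both genotypes, and the genotypes overlapped on days 1 and 3 but not on days 2 and 4, when KO was higher. Dlk1 rose by 4.51 ± 0.69 in WT (22.8-fold, adjusted p = 2.43e-04) and 5.01 ± 0.69 in KO (32.2-fold, adjusted p = 6.08e-05).

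All 4 transcripts were thus called higher on day 4 than on day 1 in both genotypes. Calls of that kind were common, since 26.9% of 17694 genes tested were called higher in WT (21.6% lower) and 33.3% in KO (32.9% lower). In WT, 552 genes had a log2 rise at least as large as that of Meg3 and 357 one at least as large as that of Dlk1, the genes themselves included. The rise from day 1 to day 4 was not called different between the genotypes for any of the 4 (edgeR interaction). Of the 17694 genes tested, 459 (2.59%) were called higher in that comparison and 677 lower. The largest difference, for Mirg, was -0.96 ± 0.39 (adjusted p = 0.134). Mirg was the 1 member under 0.05 without adjustment, and DESeq2 called 0. Without replicate 1 of KO day 1 the Mirg difference was called (-1.37, adjusted p = 0.0227).

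**Figure D1:**
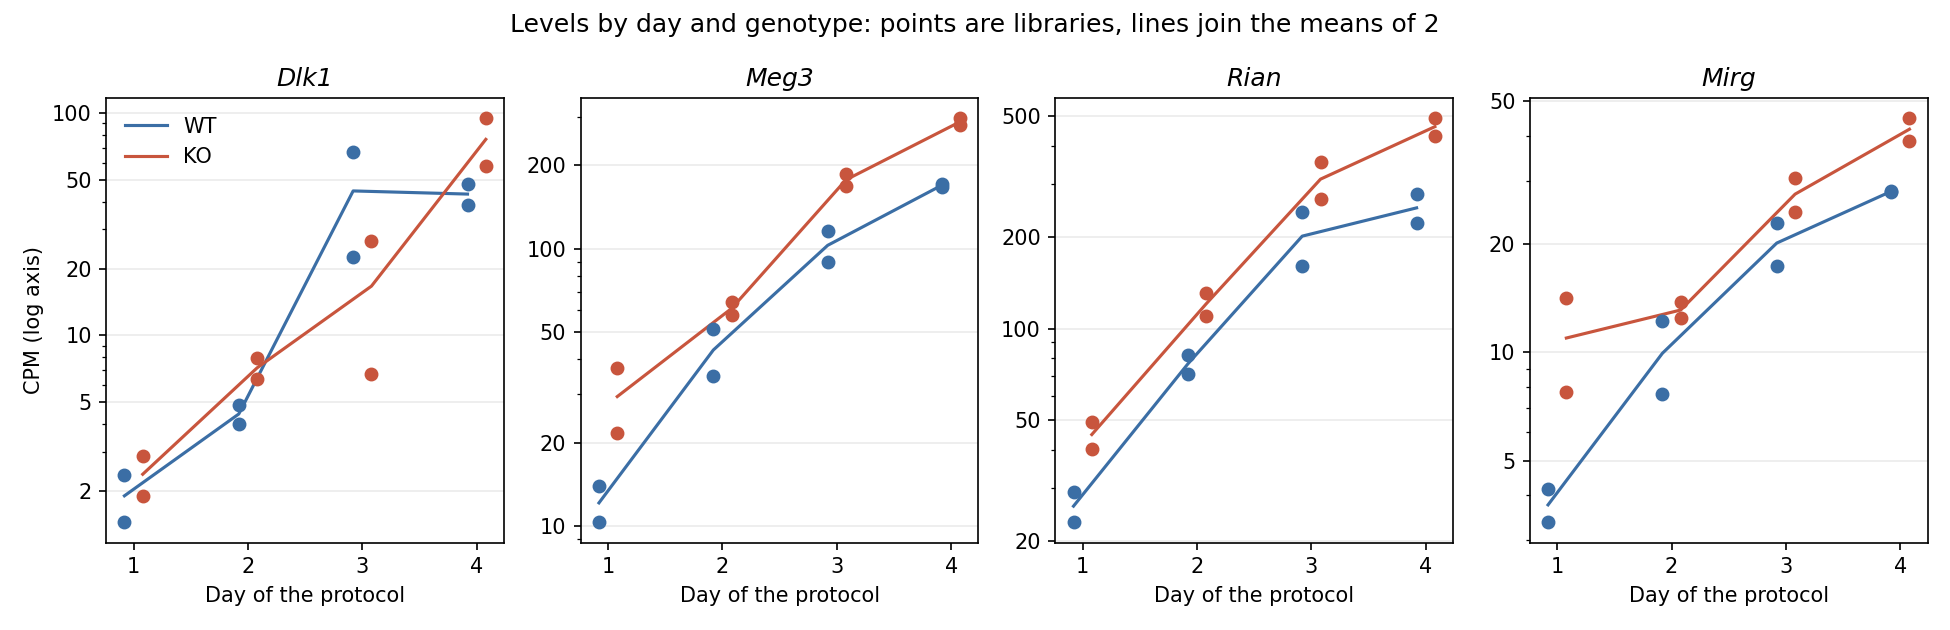
CPM of Dlk1, Meg3, Rian and Mirg (log axes) against the day of the protocol, with a point for each library and lines through the means of 2 libraries, WT in blue and KO in red. Meg3, Rian and Mirg climb from day 1 to day 4 with KO above WT on every day, whereas Dlk1 shows widely spaced replicates on day 3 (22.6 and 66.8 CPM in WT, 6.69 and 26.7 CPM in KO).

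Taken day by day, the called increases fell between day 1 and day 3. From day 1 to day 2, Meg3 (1.83 ± 0.25), Rian (1.55 ± 0.22) and Mirg (1.403 ± 0.29) rose in WT, where 12.6% of genes were called higher, and Dlk1 changed by 1.22 ± 0.69 (adjusted p = 0.233, but 0.00765 in a fit of only the 4 compared libraries and 2.2e-04 with no filter). In KO, where 22.9% were called higher, Meg3 (1.06 ± 0.24) and Rian (1.43 ± 0.22) rose, and Mirg (0.26 ± 0.27, adjusted p = 0.453) and Dlk1 (1.60 ± 0.65, adjusted p = 0.0669) did not pass the test. Dlk1 passed in KO in a fit of only the 4 compared libraries (adjusted p = 0.00237) and with no filter (adjusted p = 4.61e-08). The WT call of Mirg was lost without replicate 1 of WT day 1 (1.26, adjusted p = 0.0623) or replicate 2 of WT day 2 (1.02, adjusted p = 0.0858).

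From day 2 to day 3 all 4 rose in WT against a background of 8.0%, with Dlk1 by 3.34 ± 0.64, Rian by 1.397 ± 0.22, Meg3 by 1.25 ± 0.24 and Mirg by 1.02 ± 0.28. In KO (6.08% of genes) Meg3 rose by 1.54 ± 0.24, Rian by 1.36 ± 0.22 and Mirg by 1.06 ± 0.27, while Dlk1 changed by 1.17 ± 0.60 (adjusted p = 0.255, and 4.41e-05 with no filter). Several of these calls were lost when 1 library was left out, which leaves 1 library in its group. The change itself did not always shrink. Without replicate 1 of WT day 2 only Rian kept its WT call (Dlk1 3.49, Meg3 1.00 and Mirg 0.72, adjusted p = 0.0827, 0.0827 and 0.234). The WT call of Dlk1 was also lost without replicate 2 of WT day 2 (3.19, adjusted p = 0.074), and that of Mirg without replicate 2 of WT day 3 (0.76, adjusted p = 0.201). Without replicate 1 of KO day 2 the KO calls of Meg3 (1.46, adjusted p = 0.0551), Rian (1.24, adjusted p = 0.0564) and Mirg (0.99, adjusted p = 0.243) were lost, and Mirg lost its call without replicate 2 of KO day 2 (1.13, adjusted p = 0.0941) or of KO day 3 (0.89, adjusted p = 0.197). Without replicate 1 of KO day 3, Dlk1 passed in KO (1.89, adjusted p = 0.0378).

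From day 3 to day 4 no member was called by edgeR in either genotype. In WT 0.797% of genes were called higher, and 1 member (Meg3, 0.72 ± 0.24) was under 0.05 without adjustment while DESeq2 called 0. In KO 0.164% of genes were called higher, all 4 members were under 0.05 without adjustment, and DESeq2 called 1, Dlk1 (2.24 ± 0.59 with edgeR, adjusted p = 0.0967). Without replicate 2 of KO day 3 the edgeR test of Dlk1 passed as well (3.51, adjusted p = 0.00914).

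KO cells held more of the maternally expressed RNAs than WT cells over the course as a whole, while no difference was called for Dlk1. Averaged over days 1 to 4, KO was higher by 0.83 ± 0.12 for Meg3 (1.77-fold, adjusted p = 2.92e-04), by 0.74 ± 0.11 for Rian (1.67-fold, adjusted p = 3.28e-04) and by 0.74 ± 0.14 for Mirg (1.67-fold, adjusted p = 0.00207). That is 3 of 4 members called higher, beside 7.52% of all genes (10.0% lower) and a median change over all genes of -0.01. Dlk1 differed by 0.09 ± 0.31 (adjusted p = 0.884), and from -0.21 to 0.35 when 1 library was left out. The calls of Meg3, Rian and Mirg held when any 1 of the 16 libraries was left out, with adjusted p values from 5.51e-05 to 0.00844.

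Split by day, the difference was called chiefly on day 1, when 6.89% of genes were called higher. There KO exceeded WT by 1.27 ± 0.25 for Meg3 (adjusted p = 0.0114), 1.54 ± 0.29 for Mirg (adjusted p = 0.0103) and 0.78 ± 0.22 for Rian (adjusted p = 0.0346), with Dlk1 at 0.32 ± 0.71 (adjusted p = 0.793). None of these calls remained without replicate 1 of WT day 1 (Meg3 1.12, Mirg 1.44, Rian 0.67), replicate 2 of WT day 1 (1.55, 1.74 and 1.00) or replicate 2 of KO day 1 (0.85, 1.06 and 0.94), with adjusted p values from 0.0553 to 0.192. Without replicate 1 of KO day 1 the call of Rian was lost (0.69, adjusted p = 0.0725). On day 2 edgeR called no member (0.774% of genes higher), with Rian the 1 member under 0.05 without adjustment and 0 called by DESeq2. Day 3 likewise gave no call (1.83% of genes higher), with Meg3, Rian and Dlk1 making 3 members under 0.05 without adjustment, and DESeq2 called 1, Meg3.

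The day 3 value for Dlk1 was the 1 negative value among the 4 members and 4 days (-1.48 ± 0.59, adjusted p = 0.181, with 530 of 17694 genes called lower on that day). It passed without replicate 1 of WT day 3 (-2.06, adjusted p = 0.0322) or replicate 2 of KO day 3 (-2.74, adjusted p = 0.0354). On day 4 Rian was called (0.89 ± 0.21, adjusted p = 0.0213) where 1.99% of genes were called higher, while Meg3 (0.76 ± 0.23, adjusted p = 0.068), Mirg (0.57 ± 0.27, adjusted p = 0.243) and Dlk1 (0.82 ± 0.56, adjusted p = 0.468) did not pass. The call of Rian was lost without replicate 2 of WT day 4 (0.77, adjusted p = 0.174) or replicate 1 of KO day 4 (0.82, adjusted p = 0.141).

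**Figure D2:**
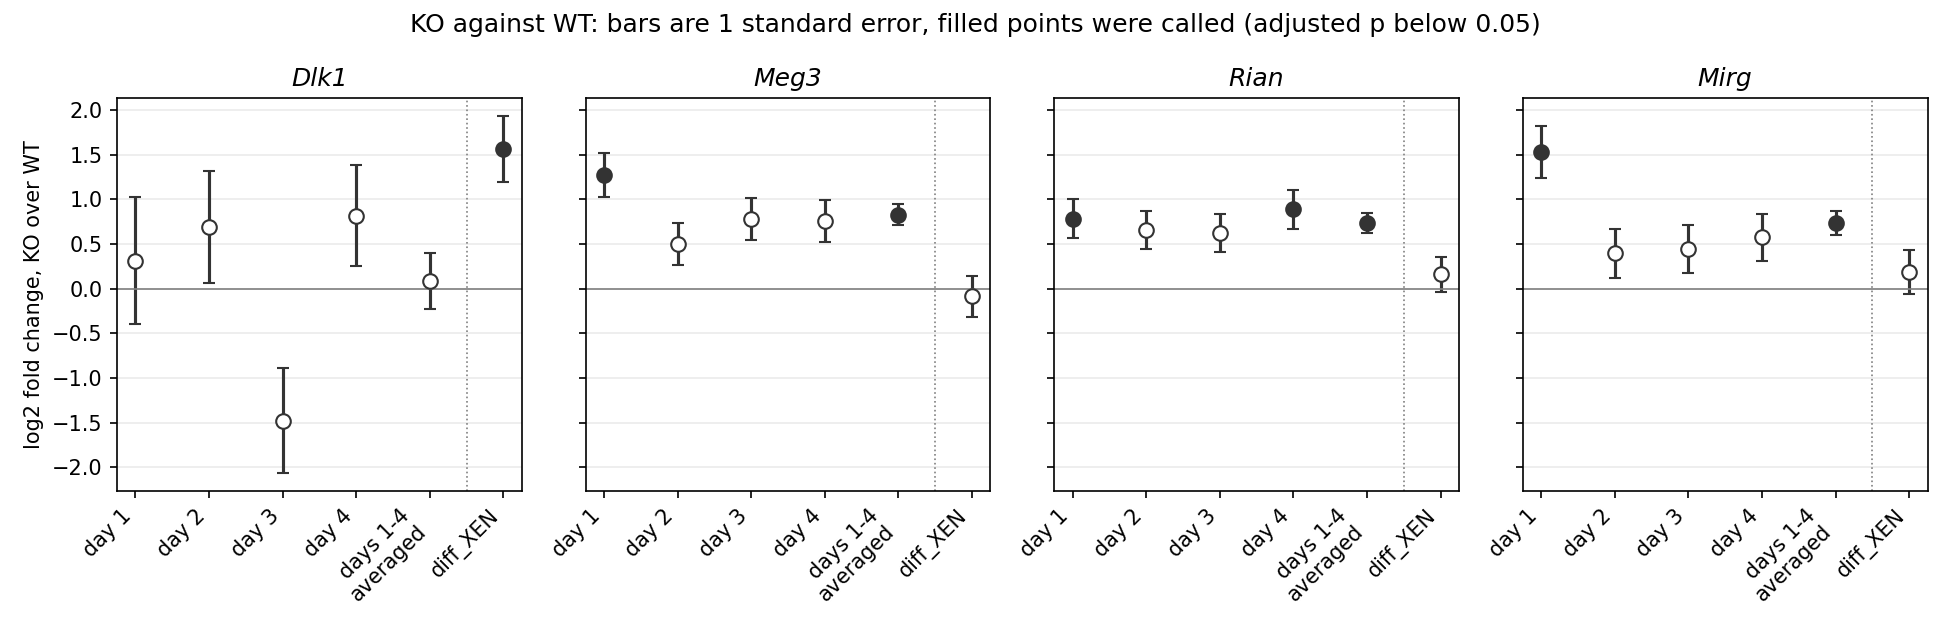
Log2 fold change of KO over WT (vertical axis, bars are 1 SE) for each day, for the average of days 1 to 4 and, right of the dotted line, for the separate diff_XEN libraries, with filled points for called differences. Meg3, Rian and Mirg lie above 0 on all 4 days and near 0 in diff_XEN (-0.08, 0.16 and 0.19), and Dlk1 lies at 1.57 in diff_XEN.

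A ratio of counts within a library does not depend on scaling, and was used to ask whether the transcripts kept their proportions. The ratio of Rian to Meg3 lay between 1.09 and 2.28 in the 16 course libraries and that of Mirg to Meg3 between 0.131 and 0.381. Averaged over days, KO minus WT was -0.09 (log2) for Rian to Meg3 (p = 0.685) and -0.09 for Mirg to Meg3 (p = 0.248, adjusted p = 0.373) by a two-sided exact permutation test of genotype within day, in which 1296 arrangements allow a smallest p of 0.00154. From day 1 to day 4 the values by day were -0.45, 0.13, -0.15 and 0.13 for Rian to Meg3. For Mirg to Meg3 they were 0.24, -0.09, -0.34 and -0.19, so opposite signs partly cancel in its average. Both KO libraries were above both WT libraries in Mirg to Meg3 on day 1, and below them on days 2, 3 and 4. The ratio of Dlk1 to Meg3 differed by -0.76 (p = 0.0617, adjusted p = 0.185 over 3 ratios, same exact test), with values by day of -0.90, 0.16, -2.33 and 0.02 from day 1 to day 4. On day 1 both WT libraries (0.140 and 0.169) were above both KO libraries (0.0875 and 0.0770), as they were on day 3 (0.252 and 0.576 in WT, 0.0398 and 0.143 in KO). None of the 3 ratios passed.

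Over the days the share of Mirg fell relative to Meg3. On day 1 the ratio of Mirg to Meg3 was 0.326 and 0.298 in WT and 0.359 and 0.381 in KO, and by day 4 it was 0.168 and 0.162 in WT and 0.160 and 0.131 in KO. Every day 1 library was above every library of days 2 to 4. This decline is a description and was not tested.

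**Figure D3:**
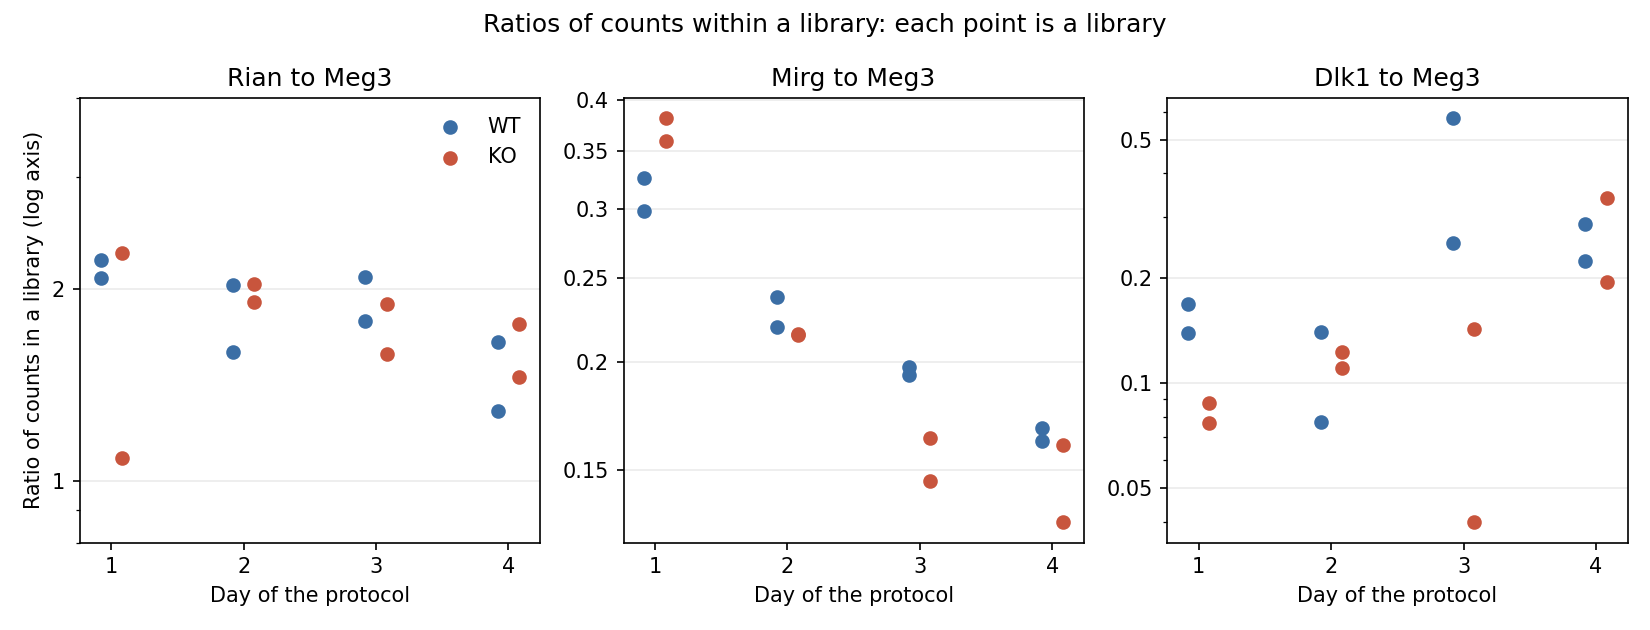
Ratios of counts of Rian, Mirg and Dlk1 to Meg3 within each course library (log axes) against the day, WT in blue and KO in red, 1 point per library. The ratio of Mirg to Meg3 falls from 0.298 to 0.381 on day 1 to 0.131 to 0.168 on day 4 in both genotypes, and the ratio of Dlk1 to Meg3 scatters most on day 3.

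Compared per kilobase of annotated exon, Rian was the most abundant member on WT day 4 at 13.7 ± 2.15 RPKM (SD, n = 2), followed by Meg3 at 9.39 ± 0.18 RPKM, Dlk1 at 7.65 ± 1.19 RPKM and Mirg at 3.84 ± 0.019 RPKM. On KO day 4 the order was the same, with Rian at 25.3 ± 2.36 RPKM, Meg3 at 15.9 ± 0.65 RPKM, Dlk1 at 13.5 ± 4.67 RPKM and Mirg at 5.72 ± 0.59 RPKM. Meg3 and Dlk1 overlapped on KO day 4, whereas neighbours in the WT order did not. The exon lengths are from GENCODE and the annotation used for counting is not given, so the order may depend on the lengths chosen. Ordered by mean CPM, the 8 course groups ran for Meg3 from WT day 1 through KO day 1, WT day 2, KO day 2, WT day 3, WT day 4 and KO day 3 to KO day 4, with overlap between KO day 1 and WT day 2 and between WT day 4 and KO day 3. Rian had the same order, with overlaps from WT day 3 to KO day 3. For Mirg, WT day 2 came before KO day 1, and WT day 4 after KO day 3. For Dlk1 the order was WT day 1, KO day 1, WT day 2, KO day 2, KO day 3, WT day 4, WT day 3 and KO day 4, and WT day 3 overlapped both of its neighbours.

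Other genes of the domain behaved in several ways. Rtl1, the paternally expressed retrotransposon-derived gene opposite the microRNA cluster, had 0 counts in all 16 course libraries. With counting error only, that allows up to 0.111 to 0.283 CPM per library (3 counts). The microRNA genes opposite Rtl1 that had a row also summed to 0 in the course, but to 1 to 24 each in the endpoint libraries. The 2 tables were counted differently, so a low level of Rtl1 and an effect of the counting cannot be told apart. Dio3, which encodes the deiodinase that inactivates thyroid hormone, rose from 4.21 and 2.78 CPM on WT day 1 to 18.9 and 8.66 CPM on day 4 (1.97 ± 0.39, adjusted p = 9.2e-04). In KO, Dio3 went from 3.83 and 3.78 CPM to 12.7 and 6.68 CPM (1.34 ± 0.39, adjusted p = 0.00739). Averaged over days, Dio3 was lower in KO by a log2 change of -0.94 ± 0.19 (adjusted p = 0.00396), opposite in sign to Meg3, Rian and Mirg, with the widest gap on day 2 (9.34 and 10.7 CPM in WT, 2.70 and 1.92 CPM in KO).
Begain, a neighbour on the Dlk1 side, lay between 0.898 and 2.40 CPM and passed no test of the course reported here (WT day 4 against day 1 -0.69 ± 0.40, KO against WT 0.33 ± 0.19). B830012L14Rik, a non-coding RNA between Rian and Mirg, had at most 6 counts in a course library and was not tested.

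Genes that flank the domain on both sides were called in both directions, at shares near those over all genes. Of 15 flanking genes 14 were tested, and in WT from day 1 to day 4 the calls were 4 higher and 4 lower (26.9% and 21.6% of all genes) with a median of 0.05 (0.01 over all genes). Examples are Eml1 (2.45 ± 0.24), the kinase gene Mok (-2.30 ± 0.28), the chaperone gene Hsp90aa1 (-1.49 ± 0.14) and Wdr25 (-1.09 ± 0.19). Between genotypes, averaged over days, 2 were higher in KO (Mok 0.52 ± 0.13, Evl 0.31 ± 0.09), 1 was lower (Eml1 -0.64 ± 0.12) and the median was -0.01. Over all genes 7.52% were called higher and 10.0% lower.

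Genes that set or keep imprints, such as DNA methyltransferases, TET dioxygenases, Polycomb subunits and ZFP57 with its partner TRIM28, were more often called lower than higher on WT day 4. Of 22 tested, 3 were higher and 13 lower (median -0.57), where 26.9% of all genes were higher and 21.6% lower. Dnmt3a (-1.47 ± 0.17), the PRC2 partner Jarid2 (-1.29 ± 0.17) and Uhrf1 (-1.10 ± 0.16), which directs DNMT1 to replicated DNA, fell, and Tet3 (1.82 ± 0.25) rose. The methyltransferase genes differed among themselves, since Dnmt3b rose (1.13 ± 0.19, adjusted p = 2.66e-04). In KO against WT, averaged over days, 7.52% of all genes were called higher and 10.0% lower. Dnmt3b, which encodes a de novo methyltransferase (-1.03 ± 0.10, adjusted p = 6.61e-06), and Zfp57 (-0.32 ± 0.10, adjusted p = 0.0427) were lower in KO. Tet1 (0.61 ± 0.15, adjusted p = 0.0134) was higher, and the other 19 listed genes were not called (list median -0.05). Whether these changes had a part in the levels of Meg3, Rian and Mirg was not tested.

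Genes of the Notch pathway, to which DLK1 is related as a non-canonical ligand, changed in part. Of 22 listed genes 21 were tested. On WT day 4 against day 1, 11 were higher and 4 lower (median 0.84), beside 26.9% and 21.6% of all genes. By role these were 2 of 6 other ligands higher and 1 lower, 3 of 4 receptors higher and 1 lower, 4 of 6 mediators higher and 1 lower, and 2 of 5 targets higher and 1 lower. The coactivator genes Maml3 (4.23 ± 0.28), Maml2 (2.70 ± 0.35) and Maml1 (0.99 ± 0.17) and the receptor gene Notch2 (1.26 ± 0.23) had the smallest p values. Between genotypes, averaged over days, 3 were higher in KO (Notch4 0.69 ± 0.14, Maml2 0.66 ± 0.16, Maml1 0.37 ± 0.08) and 1 lower (Maml3 -0.72 ± 0.14), beside 7.52% and 10.0% of all genes. The median was 0.18, and 0 of 5 targets tested were called by edgeR.

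Many imprinted genes elsewhere in the genome also rose. Of 28 tested, 18 were called higher and 3 lower on WT day 4 against day 1 (median 1.72), beside 26.9% and 21.6% of all genes. The smallest p values belonged to the growth factor gene Igf2 (6.57 ± 0.32), the growth regulator gene Grb10 (3.15 ± 0.20), Zim1 (5.90 ± 0.40) and Peg3 (5.64 ± 0.44). In KO the counts were 17 higher and 6 lower (median 2.08), beside 33.3% and 32.9% of all genes. Between genotypes, averaged over days, 11 were higher and 4 lower in KO, beside 7.52% and 10.0% of all genes. Among those called were Plagl1 (4.09 ± 0.34), H19 (3.76 ± 0.36), Sgce (0.86 ± 0.12) and Snrpn (0.73 ± 0.07). Split by the allele usually expressed, 10 of 17 paternally expressed genes were higher and 2 lower in KO (median 0.69), and of 11 maternally expressed genes 1 was higher and 2 lower (median -0.40), whereas the maternally expressed Meg3, Rian and Mirg were higher. The difference between the 2 classes was not tested.

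Markers of cell types also changed over the course and between genotypes. Over all genes, 26.9% were called higher and 21.6% lower in WT from day 1 to day 4, and 33.3% and 32.9% in KO. In KO against WT, averaged over days, the shares were 7.52% higher and 10.0% lower. The 6 primitive endoderm and XEN markers (Gata4, Gata6, Sox17, Sox7, Pdgfra, Dab2) all rose in WT from a summed 69.6 to 79.8 CPM on day 1 to 1450 to 1511 CPM on day 4, and all 6 were lower in KO averaged over days (median -1.79), with a summed 14.4 to 20.6 CPM on day 1 and 298 to 300.3 CPM on day 4. The 5 mESC markers all fell in both genotypes, to 176 to 346 CPM on WT day 4 and 64.9 to 167 CPM on KO day 4. On day 3 they summed to 364 and 946 CPM in WT replicates 1 and 2 and to 711 and 191 CPM in KO replicates 1 and 2, so the WT library with more Dlk1 had more mESC marker RNA and the KO library with more Dlk1 had less. Of 8 fibroblast and mesenchyme markers 7 rose and 1 (Thy1) fell in each genotype, from 41.0 to 42.6 CPM on WT day 1, where Dcn and Lum had 0 counts, to 836 to 1616 CPM on WT day 4, and from 17.0 to 22.7 CPM on KO day 1, where Col3a1 and Lum had 0 counts, to 1091 to 1450 CPM on KO day 4.
Between genotypes 0 of these 8 were called higher and 1 (Thy1) lower in KO, beside 7.52% and 10.0% of all genes. Neural markers summed to 47.8 to 50.2 CPM on WT and 91.2 to 105 CPM on KO day 1, with Pax6 (1.95 ± 0.13) and Sox1 (1.24 ± 0.30) higher in KO, and trophoblast markers to 72.8 to 86.3 CPM on WT and 136 to 158 CPM on KO day 4. The neural sums overlapped on day 3 (45.2 to 69.1 CPM in WT, 55.8 to 63.2 CPM in KO). On day 4 they were 40.7 to 66.4 CPM in WT and 67.2 to 119 CPM in KO. The neural marker Neurog2 had 0 counts on KO days 3 and 4, but not in WT. Mesoderm markers summed to at most 13.1 CPM in any course library. The part of these cell types in the levels of the 4 transcripts was not tested, and in bulk RNA fewer cells of a type and less RNA per cell cannot be told apart.

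Likeness over the course was ranked by Pearson r of log2 CPM over the 16 libraries, which share 4 days of differentiation, among 13359 candidate genes averaging 1 CPM or more. Predicted and clone-named genes were left out of the candidates. For Meg3 the most alike were Mirg (r = 0.983) and Rian (r = 0.982), followed by Slc39a1 (0.975), Gtf2ird2 (0.974) and Zfp579 (0.972). Meg3 in turn was the most alike gene for both Rian and Mirg, while Rian was at rank 12 for Mirg and Mirg at rank 194 for Rian (r = 0.949). After it came Zfp46, Parva and Dbn1 for Rian (0.982 to 0.980), and P3h4, Spsb2 and Twist1 for Mirg (0.975 to 0.965). These ranks depend on the measure. By Spearman rho, Zfp46 (0.994), Dbn1 (0.988) and Parva (0.982) were closer to Rian than Meg3 was (0.968). Likewise Zfp579 (0.979) and Slc39a1 (0.971) were closer to Meg3 than Mirg and Rian were (0.968 each). Dlk1 was at rank 710 for Meg3 (r = 0.895), and its own closest genes were Gskip (0.977), Gng11 (0.973), Tmem62 (0.970), Kif26b (0.969) and Ecm1 (0.969). The values are a description of these libraries, with no test.

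At the endpoint the genotypes differed for Dlk1 and not detectably for the maternal RNAs. Dlk1 stood at 115 and 54.6 CPM in the WT diff_XEN libraries, 240 CPM in KO clone C4 and 255 CPM in KO clone 5-3. Both KO clones were above both WT libraries, and the difference of 1.57 ± 0.37 (2.97-fold) was called (adjusted p = 0.0198), as were 22.1% of 16671 genes in that direction and 24.9% in the other. The call was lost when clone C4 (1.66, adjusted p = 0.0616) or clone 5-3 (1.51, adjusted p = 0.0754) was left out.

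For Meg3 the WT libraries held 152 and 228 CPM, clone C4 185 CPM and clone 5-3 167 CPM, a difference of -0.08 ± 0.23 (adjusted p = 0.785). Rian was at 178 and 234 CPM in WT and 246 and 207 CPM in the clones (0.16 ± 0.20, adjusted p = 0.537), and Mirg at 9.63 and 11.5 CPM in WT and 13.1 and 10.6 CPM in the clones (0.19 ± 0.24, adjusted p = 0.556). For these 3 the WT and KO libraries overlapped. Ago2 itself stood at 115 CPM in C4 and 9.35 CPM in 5-3, beside 389 and 427 CPM in WT, and its difference was not called (-2.72 ± 1.04, adjusted p = 0.0808).

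Other genes were called in the same comparison of diff_XEN libraries, where 22.1% of all genes were called higher in KO and 24.9% lower. Dio3 was higher (1.48 ± 0.46, adjusted p = 0.0447), and of 27 imprinted genes tested elsewhere 10 were higher and 1 lower (median 0.89). Among the Notch genes 9 of 20 were higher and 2 lower (median 0.97), including the related ligand gene Dlk2 (4.02 ± 0.52) and 3 of 4 receptor genes. All 6 XEN markers were lower in KO, at a summed 407 to 601 CPM beside 3172 to 4196 CPM in WT. Fibroblast and mesenchyme markers summed to 2421 to 3868 CPM in KO and 323 to 729 CPM in WT, with 4 of 8 higher and 2 lower and Lum at 0 counts in KO. The mESC markers summed to 12.03 to 14.6 CPM in KO and 144 to 203 CPM in WT, and the neural markers to 86.4 to 92.9 CPM in KO and 18.7 to 25.4 CPM in WT. Trophoblast markers summed to 72.8 to 131 CPM in KO and 16.1 to 30.5 CPM in WT, and mesoderm markers to 32.7 to 40.7 CPM in KO and 15.9 to 18.2 CPM in WT. Not every marker of these classes was higher in KO. Neurog2 (neural), Cdx2 (trophoblast) and T (mesoderm) had 0 counts in KO but not in WT, and Mesp1 (mesoderm) had 0 counts in both. The part of these marker classes in the level of Dlk1 was not tested.

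WT diff_XEN libraries were also set against WT mESCs. Both groups are labelled as re-used, and no label says that they were prepared together. Differences of preparation and of differentiation therefore cannot be told apart here. Dlk1 was almost absent from mESCs, with 0.600 and 0.493 CPM (25 and 18 counts), and was higher in WT diff_XEN by 7.27 ± 0.47 (154-fold, adjusted p = 9.88e-05, with 27.2% of 17936 genes called higher). Rian was lower in diff_XEN, from 287 and 399 CPM in mESCs to 178 and 234 CPM (-0.74 ± 0.26, adjusted p = 0.0456, 25.3% of genes called lower), without overlap between the groups. That call was lost without WT diff_XEN library A (-0.50, adjusted p = 0.248), library B (-0.92, adjusted p = 0.0719) or the mESC library of passage 42 (-0.48, adjusted p = 0.161), and with no expression filter (-0.70, adjusted p = 0.0524). Meg3 went from 144 and 119 CPM to 152 and 228 CPM (0.53 ± 0.26, adjusted p = 0.116) and Mirg from 17.5 and 16.7 CPM to 9.63 and 11.5 CPM (-0.69 ± 0.28, adjusted p = 0.0702, and 0.0278 with DESeq2). Rtl1 had 0 counts in both mESC libraries and 3 to 7 counts in each diff_XEN library.

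**Figure D4:**
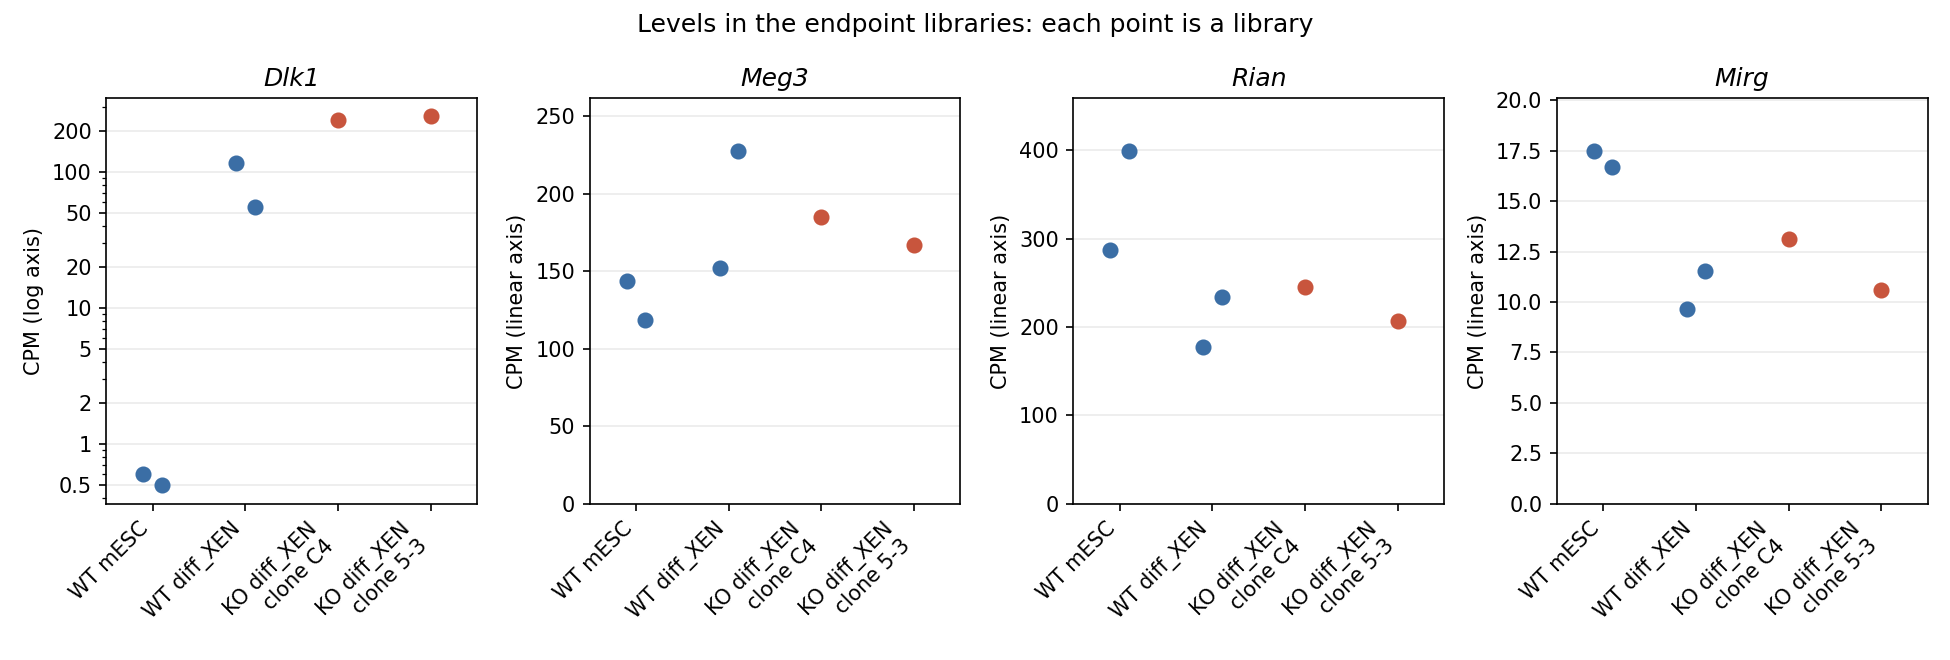
CPM of the 4 transcripts in the endpoint libraries (log axis for Dlk1, linear axes from 0 for the others), 1 point per library, WT in blue and the KO clones C4 and 5-3 in red. Dlk1 goes from 0.493 to 0.600 CPM in mESCs to 54.6 to 115 CPM in WT diff_XEN and 240 to 255 CPM in the KO clones, whereas Meg3 lies between 119 and 228 CPM in every library.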

How the data were processed

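Raw counts per gene from polyadenylated RNA, deposited by the authors as whole numbers, were used from 22 of the 24 samples. The submitters' processing notes name the genome build mm10, the aligner STAR (2.5.0c) and the counter featureCounts (1.4.5-p1). The annotation release and strand setting are not given in the sources used here. Overlapping and antisense genes (Rtl1 and the opposite microRNA genes, Gm26906 within Meg3) may therefore share reads. The 3 columns of the series table that no label ties to a sample were not used, so KO mESCs were not analysed here.

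The 16 course libraries were fitted together, the 4 diff_XEN libraries alone, and the 6 endpoint libraries together (their tables list the same identifiers in the same order), in R 4.3.3 using edgeR 4.0.16 and its quasi-likelihood test (TMM, default filter by group, robust, no covariates), SE being the log2 change divided by the root of F. RPKM here is CPM per kilobase of the union of GENCODE exons. Alternatives were DESeq2 size factors, DESeq2 1.42.0 (Wald test), no filter, the replicate number as a block, the 4 compared libraries alone, a pseudocount of 5 in place of 0.5 for ratios, and leaving out each library. The fits and the ratio test were tested on simulated data. Replicates differed by more than sampling noise (chi-square per degree of freedom 12.6 to 149). The 4 transcripts, the lists and the tests were chosen with earlier results of these data known. Named genes are the members, the listed genes of the domain, and up to 4 genes with the smallest p per list, with few exceptions chosen after their values were seen (the receptor and ligand genes named at the endpoint, Thy1, Sox1 and Pax6).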

Additional observations from a re-analysis of the deposited data

How the results depend on the processing

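Values of single members were recomputed under each alternative. Of these, 555 kept their side of the threshold, 29 passed it newly, 32 lost it and 0 reversed while called. Some uncalled values among the 555 changed sign, such as Dlk1 in KO against WT averaged over days (0.09, and down to -0.21 with 1 library left out). All 4 rises from day 1 to day 4 in each genotype, and the higher Meg3, Rian and Mirg of KO averaged over days, kept their calls under every alternative run. Counts of members called changed as follows. With no filter they were 4 for WT day 2 against day 1, 3 for KO day 2 against day 1, 4 for KO day 3 against day 2, 1 for WT day 4 against day 3, 3 for KO day 4 against day 3, 1, 3 and 3 for KO against WT on days 2, 3 and 4, 1 for the difference between genotypes in the rise and 1 for WT diff_XEN against mESCs. DESeq2 called 1 for KO day 4 against day 3, 1 and 2 for KO against WT on days 3 and 4, and 3 for WT diff_XEN against mESCs. With only the 4 compared libraries the counts were 4 for WT and 3 for KO day 2 against day 1, 2 for WT day 3 against day 2, and 1 and 2 for KO against WT on days 2 and 4. Leaving out 1 library gave 2 to 3 for WT day 2 against day 1, 1 to 4 for WT day 3 against day 2, 0 to 4 for KO day 3 against day 2, 0 to 1 for KO day 4 against day 3, 0 to 2 on day 1, 0 to 1 on day 3 and 0 to 1 on day 4 for KO against WT, 0 to 1 for the difference in the rise, 0 to 1 for diff_XEN and 1 to 2 for WT diff_XEN against mESCs. The cause was not tested. The ratio of Rian to Meg3, not called, turned to 0.05 without replicate 2 of KO day 1.

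Replicate numbers were not treated as pairs in the main fit. The departures of replicate 1 from its group mean correlated above 0.1 in 7 of 28 pairs of course groups (r from -0.18 to 0.39). This check cannot tell whether some libraries were paired. With the replicate block, Meg3 was called higher in KO on day 3 (0.80, adjusted p = 0.0235) and day 4 (0.76, adjusted p = 0.0197), so that 1 and 2 members were called on those days. Depth limits Dlk1 on day 1 and in mESCs, where libraries held 18 to 62 counts. No paired analysis was possible for the endpoint because its columns carry no shared replicate numbers.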
